A study of Mus musculus with 6 samples.

Results

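The collagen chains are the protein-coding genes of the mouse that carry a symbol of the form Col, a number, a and a number, and 44 of the 54532 genes in the deposited table met this rule. Their RNA was measured by bulk RNA sequencing in MC3T3-E1, a clonal line of mouse pre-osteoblasts that lays down and mineralizes a collagen matrix under osteogenic medium. All 6 samples were grown in osteogenic medium, which per the study's methods holds ascorbic acid, beta-glycerophosphate and dexamethasone. In 3 samples this medium was used alone, labelled as control, and in 3 samples metformin, a biguanide that lowers blood glucose, was added. The induction of 3 days comes from the study's methods and the dose of 0.2 mM from its results, since the labels give neither. The labels do not say whether samples of a group came from separate cultures, while the methods call them biological replicates, so the p-values measure the spread between these samples of 1 line.

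Collagens are secreted proteins in which 3 chains wind into a triple helix, and which chains a cell makes sets which collagen types it can assemble. Fibrillar collagens build the cables of bone, skin and tendon, basement membrane collagens form sheet-like networks beneath cells, and FACIT collagens (fibril-associated collagens with interrupted triple helices) sit on the surface of fibrils. The other collagens include beaded filaments around cells, short-chain networks, membrane-spanning chains and the multiplexins, which carry sugar chains. In bone, type I collagen, made of chains from Col1a1 and Col1a2, is the main organic component of the matrix on which mineral forms.

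Values are FPKM, the reads of a gene divided by its length and by the library size. The reads behind them could be recovered and numbered 18399861 to 22111790 per sample. Mitochondrial genes took 10.01, 8.37 and 6.36% of the reads in control replicates 1, 2 and 3 and 2.72, 2.79 and 3.16% with metformin. The metformin and control groups were compared by limma-trend after taking log2(FPKM + 1). Genes whose mean FPKM was under 0.5 were left out, which kept 12681, and the p-values were adjusted over these by the Benjamini-Hochberg method with 0.05 as the threshold. Adding 1 to each value shrinks the fold change of weakly expressed genes. Among all tested genes, 13.2% were called higher and 9.28% were called lower with metformin.

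Of the 44 chains, 25 passed the filter on low values and 19 did not. With metformin, 10 of these 25 chains were called higher (40% of those tested, against 13.2% of all tested genes) and 2 were called lower (8%, against 9.28%). The chains that rose were Col1a1, Col1a2, Col5a1, Col5a2, Col4a5, Col4a6, Col12a1, Col6a3, Col8a1 and Col8a2, and those that fell were Col3a1 and Col10a1. In 13 chains the 3 metformin samples were all above the 3 controls, as in 23.6% of all tested genes, and in 3 chains they were all below, as in 20.5% of all tested genes. The median log2 fold change of the 25 chains was 0.42, against 0.0053 over all tested genes. A bulk sample cannot tell more cells of a type from more RNA per cell, and this holds for each difference below. Positions of the called chains are those of the table, which match GRCm38. Of the 12 called chains, 6 (Col5a2, Col4a5, Col4a6, Col12a1, Col8a1 and Col10a1) were called in all 15 alternative analyses, which included leaving out each library in turn.

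**Figure D1:**
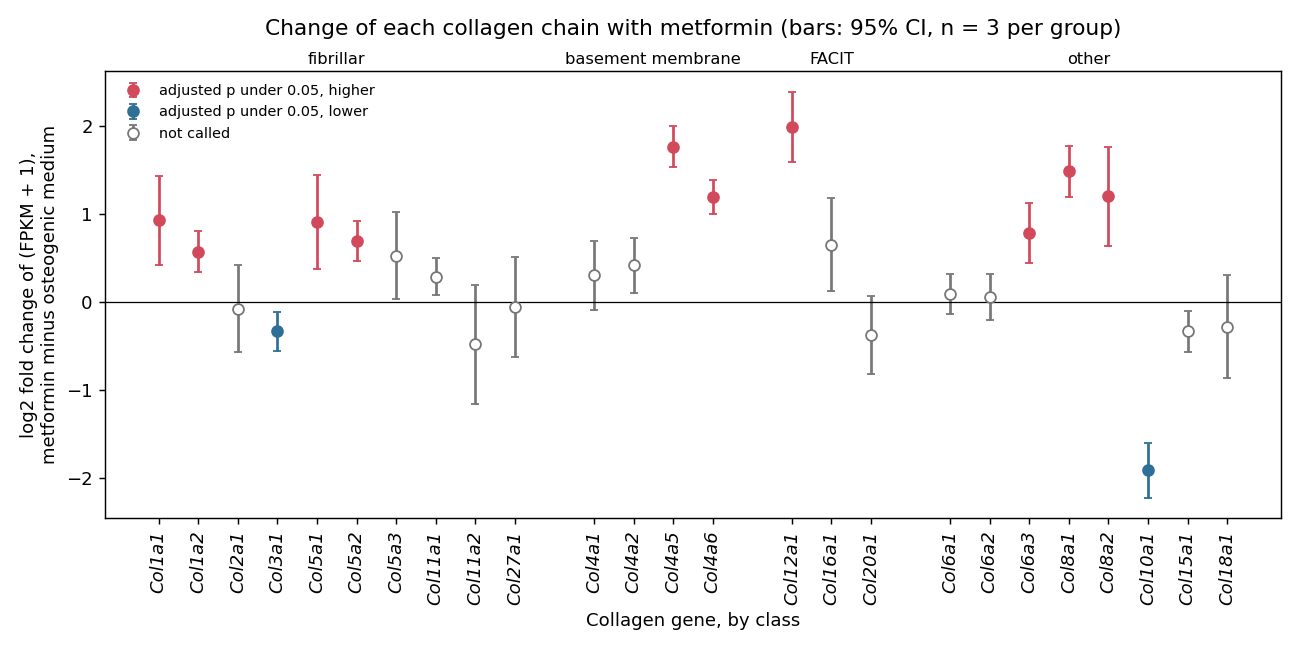
Log2 fold change (metformin against control, on log2(FPKM + 1)) of the 25 tested collagen chains by class, with points at the estimate and bars for the 95% confidence interval from limma-trend. Filled points were called and open points were not, and Col12a1 at 1.99 and Col4a5 at 1.77 lie highest and Col10a1 at -1.91 lowest.

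The windows upstream of the called chains are shown because chains of this family moved in both directions, so that the sequence before chains that rose and chains that fell can be set side by side. The set of RefSeq windows used here held 38 windows for 35 of the 44 chains (build GRCm38.p6). The 6 printed here are those of called chains in which the 250 bases before the gene start held no annotated exon. They span chr10:34389731-34389980 on the plus strand for Col10a1, chr1:45311288-45311537 on the plus strand for Col3a1, chrX:141474077-141474326 on the minus strand for Col4a6, chr2:27886175-27886424 on the plus strand for Col5a1, chr16:57754738-57754987 on the minus strand for Col8a1 and chr1:90843972-90844221 on the minus strand for Col6a3, each written 5′ to 3′ on the strand of the gene. Capitals mark promoter motifs, each searched for on both strands. The first motif was TATAAA, the classical element near the start of some genes. The second was the box known by its letters CCAAT. The last was the GC box, with the letters GGGCGG on one strand and so CCGCCC on the other strand.
Col10a1: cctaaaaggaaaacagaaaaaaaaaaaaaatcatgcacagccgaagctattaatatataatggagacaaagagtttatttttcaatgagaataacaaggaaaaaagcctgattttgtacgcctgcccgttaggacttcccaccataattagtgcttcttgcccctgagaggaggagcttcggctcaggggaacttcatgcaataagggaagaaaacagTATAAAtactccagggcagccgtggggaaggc
Col3a1: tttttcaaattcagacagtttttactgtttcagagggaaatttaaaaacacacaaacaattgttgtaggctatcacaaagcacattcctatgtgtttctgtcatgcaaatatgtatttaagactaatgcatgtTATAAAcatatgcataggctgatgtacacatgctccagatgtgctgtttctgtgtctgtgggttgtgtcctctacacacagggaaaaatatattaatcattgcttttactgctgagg
Col4a6: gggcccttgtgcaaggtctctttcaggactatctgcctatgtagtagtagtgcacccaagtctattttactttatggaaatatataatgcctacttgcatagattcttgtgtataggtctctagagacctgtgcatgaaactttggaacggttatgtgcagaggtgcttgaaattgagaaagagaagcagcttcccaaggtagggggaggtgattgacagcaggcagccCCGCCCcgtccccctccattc
Col5a1: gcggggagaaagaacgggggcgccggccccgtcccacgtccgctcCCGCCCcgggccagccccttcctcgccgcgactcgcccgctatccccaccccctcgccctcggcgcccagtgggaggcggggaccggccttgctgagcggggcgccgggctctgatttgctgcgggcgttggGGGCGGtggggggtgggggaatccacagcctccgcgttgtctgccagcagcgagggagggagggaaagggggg
Col8a1: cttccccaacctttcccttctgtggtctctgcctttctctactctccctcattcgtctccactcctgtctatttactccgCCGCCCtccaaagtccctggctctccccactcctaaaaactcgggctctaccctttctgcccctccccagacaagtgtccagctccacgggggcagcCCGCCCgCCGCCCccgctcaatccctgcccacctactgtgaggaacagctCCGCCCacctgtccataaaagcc
Col6a3: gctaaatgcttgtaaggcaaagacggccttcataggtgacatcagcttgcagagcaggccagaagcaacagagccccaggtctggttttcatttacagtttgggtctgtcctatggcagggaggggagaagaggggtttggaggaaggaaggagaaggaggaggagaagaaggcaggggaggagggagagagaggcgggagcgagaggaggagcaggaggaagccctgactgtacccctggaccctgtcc
The windows of both chains that fell held a TATAAA and no GC box, at position -32 from the gene start in Col10a1 and at position -117 in Col3a1. Of the chains that rose, the printed windows of Col4a6, Col5a1 and Col8a1 had 1, 2 and 4 GC boxes and no TATAAA. That of Col6a3 had none of the 3 motifs. The windows of Col1a2, Col4a5 and Col8a2 held annotated exons and are not printed, with 2, 1 and 4 GC boxes and no TATAAA. Col1a2 and Col4a5 also had 1 CCAAT box each. The Col1a2 window, chr6:4505368-4505617, lay inside the gene as listed, so its motifs are not upstream of the listed start. Those of Col4a5 and Col8a2 reached into the gene as listed. The set of RefSeq windows used here held none for Col1a1, Col5a2 or Col12a1. Whether motifs differ between chains that rose and chains that fell was not tested. Over the 38 collagen windows, 57.9% held a GC box, 34.2% a CCAAT box and 13.2% a TATAAA. Among all 32851 windows of this length the shares were 32.7%, 33.8% and 12.4%. A match describes the letters of the window and says nothing of which factor binds there.

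Among the 11 fibrillar chains, 10 were tested, with a median log2 fold change of 0.41. Of the 10 tested, 4 were called higher (40%) and 1 lower (10%), against 13.2% and 9.28% of all tested genes. Both chains of type I collagen rose. Col1a1 (ENSMUSG00000001506, chr11:94936224-94953042, plus strand) measured 927, 1506 and 1585 FPKM in control replicates 1 to 3 and 2518, 2576 and 2366 FPKM with metformin. The groups did not overlap, control replicate 1 was far below the other controls, and Col1a1 ranked 18 among all genes by mean FPKM in the controls and 7 with metformin. Its log2 fold change was 0.93 ± 0.21 (SE, n = 3 per group, limma-trend, adjusted p = 0.0230). Leaving out a metformin sample ended the call: the adjusted p was 0.0889 without replicate 1, 0.0942 without replicate 2 and 0.0749 without replicate 3. With no filter on low values it was 0.186. Col1a2 (ENSMUSG00000029661, chr6:4504814-4541544, plus strand), which gives the partner chain, measured 950, 1002 and 956 FPKM in the controls and 1431, 1524 and 1378 FPKM with metformin. Here the controls were tight and all lay below the samples with metformin. The log2 fold change was 0.57 ± 0.10 (limma-trend, adjusted p = 0.00719), and the adjusted p was 0.0525 without metformin replicate 1 and 0.0572 without metformin replicate 2. With no filter on low values it was 0.179.

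Col5a1 and Col5a2, chains of type V collagen, a minor fibrillar type that co-assembles with type I and limits fibril width, also rose. Col5a2 (ENSMUSG00000026042, chr1:45374321-45503282, minus strand) measured 162, 144 and 147 FPKM in the controls and 241, 260 and 233 FPKM with metformin. These values did not overlap, with a log2 fold change of 0.69 ± 0.10 (limma-trend, adjusted p = 0.00323). Col5a1 (ENSMUSG00000026837, chr2:27886425-28039514, plus strand) measured 148, 206 and 278 FPKM in the controls and 388, 409 and 358 FPKM with metformin. The controls of Col5a1 were spread widely, with replicate 1 lowest and replicate 3 highest, yet stayed below every sample with metformin. Its log2 fold change was 0.91 ± 0.22 (limma-trend, adjusted p = 0.0285). The adjusted p rose to 0.0812 without control replicate 2 and to 0.0992, 0.110 and 0.0804 without metformin replicates 1, 2 and 3, and it was 0.0776 with no filter on low values. The third type V chain, Col5a3, measured 16.3, 20.5 and 30.1 FPKM in the controls and 32.6, 33.2 and 29.3 FPKM with metformin. Its groups overlapped and it was not called (log2 fold change 0.53 ± 0.21, limma-trend, adjusted p = 0.118), although without control replicate 3 the adjusted p was 0.0142.

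Col3a1 (ENSMUSG00000026043, chr1:45311538-45349706, plus strand), the chain of type III collagen, which accompanies type I in soft tissues, went the other way. It measured 341, 378 and 348 FPKM in the controls and 277, 298 and 271 FPKM with metformin. The groups did not overlap, but the shift was small, with a log2 fold change of -0.33 ± 0.09 (limma-trend, adjusted p = 0.0464). This call was close to the threshold. It held without control replicate 1, and the adjusted p was between 0.0591 and 0.192 in the fits without each of the other 5 libraries. In the fit with a replicate block it was 0.130, and it was 0.126 with no filter and 0.0521 with at least 10 reads in every library.

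The remaining fibrillar chains had low to moderate levels and were not called. Col11a1, a minor chain of cartilage fibrils that is also made outside cartilage, measured 28.2, 26.2 and 24.7 FPKM in the controls and 31.2, 33.9 and 32.0 FPKM with metformin. These groups did not overlap, with a log2 fold change of 0.29 ± 0.09 and an adjusted p of 0.0585 by limma-trend, or 0.00569 without control replicate 1. Its partner Col11a2 measured 0.938, 2.29 and 3.39 FPKM in the controls and 1.03, 1.14 and 1.38 FPKM with metformin (log2 fold change -0.48, 95% confidence interval -1.16 to 0.20), and was called lower without control replicate 1 (-0.80, adjusted p = 0.00575). Col2a1, the main fibrillar chain of cartilage, measured 6.44, 10.8 and 11.9 FPKM in the controls and 8.72, 9.70 and 8.35 FPKM with metformin. Its log2 fold change was -0.07, with a 95% confidence interval of -0.57 to 0.42, and it was -0.32 with an adjusted p of 0.0198 when control replicate 1 was left out. Col27a1, a fibrillar chain of developing cartilage, had a log2 fold change of -0.05 (-0.62 to 0.51). For both Col2a1 and Col27a1 the sign turned when single controls were left out.

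**Figure D2:**
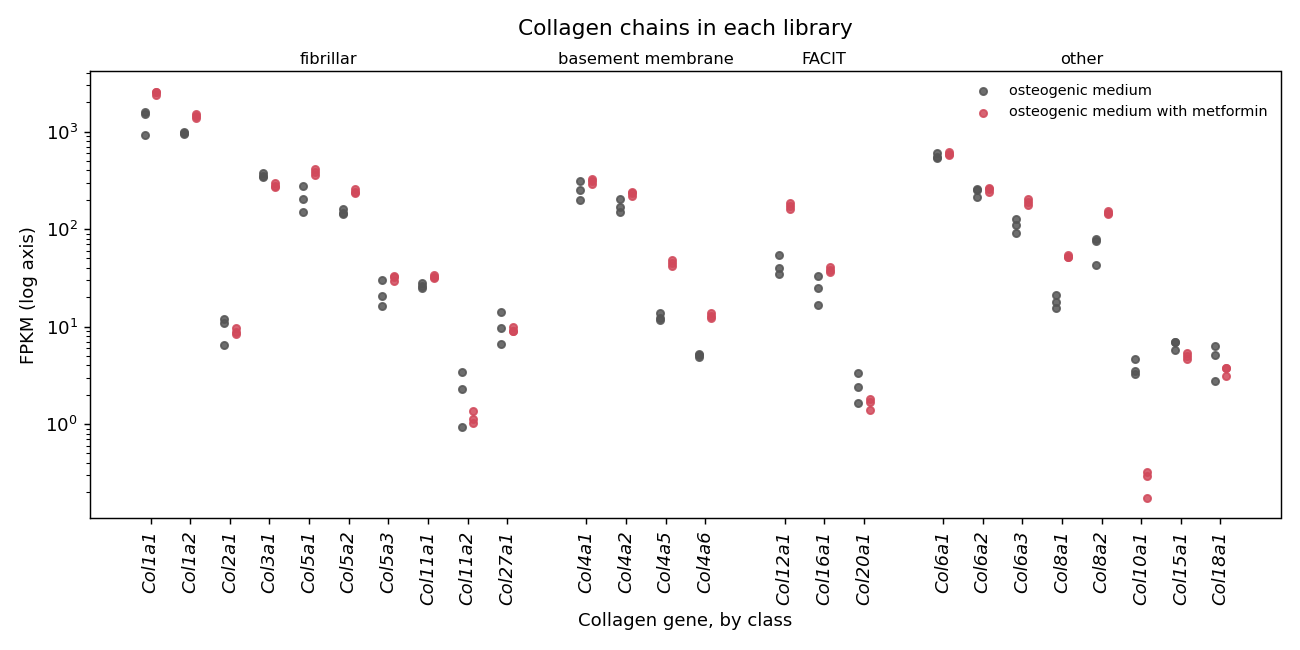
FPKM on a log axis of the 25 tested collagen chains in each of the 6 libraries, with control libraries and metformin libraries in separate colours and chains ordered by class. The 3 control points are farther apart than the 3 metformin points in chains such as Col1a1, Col5a1, Col11a2 and Col8a2, while in Col10a1 the metformin points, at 0.176 to 0.322 FPKM, are farther apart than the controls.

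Of the 6 basement membrane chains, 4 were tested, with a median log2 fold change of 0.81. Of the 4 tested, 2 were called higher (50%) and 0 lower, against 13.2% and 9.28% of all tested genes. The called chains were Col4a5 and Col4a6, which lie head to head on the X chromosome with 1308 bases between their starts and are chains of the less widespread type IV networks. Col4a5 (ENSMUSG00000031274, chrX:141475385-141689234, plus strand) measured 13.7, 12.4 and 11.6 FPKM in the controls and 45.0, 48.2 and 42.0 FPKM with metformin. Its mean was 3.59-fold higher with metformin, the gap between groups was far wider than the spread within them, and the log2 fold change was 1.77 ± 0.10 (limma-trend, adjusted p = 0.000110). Col4a6 (ENSMUSG00000031273, chrX:141165403-141474076, minus strand) measured 5.13, 5.30 and 4.86 FPKM in the controls and 12.8, 13.9 and 12.3 FPKM with metformin. This was a 2.54-fold higher mean and a log2 fold change of 1.19 ± 0.08 (limma-trend, adjusted p = 0.000210).

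Col4a1 and Col4a2, the chains of the type IV network found in nearly all basement membranes, were more abundant than Col4a5 and Col4a6 in every library and did not pass the threshold. Col4a1 measured 199, 253 and 309 FPKM in the controls and 311, 324 and 291 FPKM with metformin, so that the groups overlapped (log2 fold change 0.30, 95% confidence interval -0.09 to 0.70, limma-trend, adjusted p = 0.239). Col4a2 measured 152, 168 and 205 FPKM in the controls and 235, 243 and 219 FPKM with metformin. Its groups did not overlap, the log2 fold change was 0.42 (0.11 to 0.73, adjusted p = 0.0632 by limma-trend), and it was called without control replicate 1 (adjusted p = 0.0403) or without control replicate 3 (0.0182). Col4a1 and Col4a2 are also head to head and share 22 exonic bases on opposite strands, and the strand setting of the counting is not given in the sources used here. The other head-to-head pair of this family, Col4a3 and Col4a4, whose starts are 71 bases apart, stayed under the filter with 0 to 2 and 2 to 7 reads per library.

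Of the 9 FACIT chains, 3 were tested, with a median log2 fold change of 0.65. Of the 3 tested, 1 was called higher (33.3%) and 0 lower, against 13.2% and 9.28% of all tested genes. Col12a1 (ENSMUSG00000032332, chr9:79598991-79718831, minus strand), which decorates type I fibrils in bone, tendon and ligament, measured 54.3, 34.8 and 39.7 FPKM in the controls and 171, 183 and 159 FPKM with metformin. Its mean was 3.99-fold higher, the highest ratio among the 25 tested chains, with a log2 fold change of 1.99 ± 0.17 (limma-trend, adjusted p = 0.000426). Its highest control value was in replicate 1, where Col1a1, Col1a2 and Col5a1 had their lowest. Col16a1, a FACIT of several connective tissues, measured 16.8, 25.1 and 32.8 FPKM in the controls and 38.0, 40.6 and 36.5 FPKM with metformin. The groups did not overlap but the controls were spread, and the log2 fold change of 0.65 ± 0.22 was not called (limma-trend, adjusted p = 0.0815), while without control replicate 1 or 3 the adjusted p was 0.0298 or 0.0246. Col20a1 measured 1.64, 2.39 and 3.36 FPKM in the controls and 1.69, 1.40 and 1.80 FPKM with metformin, with overlap and a log2 fold change of -0.37 (-0.82 to 0.07). It was called lower without control replicate 1 (-0.55, adjusted p = 0.0169). Col20a1 also shares 79 exonic bases with a sense-overlapping transcript.

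Of the 18 other chains, 8 were tested, with a median log2 fold change of 0.08. Of the 8 tested, 3 were called higher (37.5%) and 1 lower (12.5%), against 13.2% and 9.28% of all tested genes. Type VI collagen, whose beaded filaments surround cells, was split among its chains. Col6a3 (ENSMUSG00000048126, chr1:90765923-90843971, minus strand) measured 128, 90.7 and 111 FPKM in the controls and 189, 203 and 175 FPKM with metformin. It did not overlap between groups and had a log2 fold change of 0.79 ± 0.14 (limma-trend, adjusted p = 0.00941, or 0.0523 without metformin replicate 2). Its partners, which join it in the same assembly, gave smaller differences. Col6a1 measured 534, 597 and 550 FPKM in the controls and 595, 620 and 573 FPKM with metformin (log2 fold change 0.09, 95% confidence interval -0.14 to 0.32). Col6a2 measured 214, 258 and 254 FPKM in the controls and 256, 262 and 238 FPKM with metformin (0.06, -0.20 to 0.32). Both overlapped between groups, and both changed sign to -0.02 and -0.05 when libraries were scaled by their reads outside the mitochondrial genes.

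Among the short-chain collagens, Col8a1 and Col8a2 rose and Col10a1 fell. Col8a1 (ENSMUSG00000068196, chr16:57624258-57754737, minus strand), a network-forming chain of vessel wall and cornea, measured 21.2, 17.9 and 15.6 FPKM in the controls and 51.5, 54.4 and 51.6 FPKM with metformin. All samples with metformin were above all controls, the mean was 2.88-fold higher and the log2 fold change was 1.49 ± 0.12 (limma-trend, adjusted p = 0.000368). Its partner Col8a2 (ENSMUSG00000056174, chr4:126286793-126314330, plus strand) measured 42.4, 75.0 and 80.1 FPKM in the controls and 146, 154 and 143 FPKM with metformin. The groups did not overlap and the log2 fold change was 1.20 ± 0.24 (limma-trend, adjusted p = 0.0127). Control replicate 1 was the low sample, and the adjusted p was 0.0527, 0.0582 and 0.0506 without metformin replicates 1, 2 and 3.

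Col10a1 (ENSMUSG00000039462, chr10:34389981-34397085, plus strand), the short chain known as the marker of hypertrophic cartilage, fell. It measured 3.27, 4.62 and 3.49 FPKM in the controls, from 187, 303 and 215 reads, and 0.322, 0.176 and 0.295 FPKM with metformin, from 20, 12 and 18 reads. The ratio of the means was 0.0697. The log2 fold change was -1.91 ± 0.13 on log2(FPKM + 1) (limma-trend, adjusted p = 0.000206), and the size of this estimate depended on the scale, with -3.43 at a pseudocount of 0.1 and -3.85 by voom on the recovered reads. Col10a1 shares 18 exonic bases with Nt5dc1 on the opposite strand.

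The multiplexins Col15a1 and Col18a1, whose ends can be cut into fragments that act on vessels, were not called. Col15a1 measured 5.80, 6.97 and 6.92 FPKM in the controls and 5.30, 5.05 and 4.62 FPKM with metformin, without overlap (log2 fold change -0.33 ± 0.10, limma-trend, adjusted p = 0.0531, or 0.00511 without control replicate 1). Col18a1 measured 2.74, 5.09 and 6.40 FPKM in the controls and 3.80, 3.76 and 3.12 FPKM with metformin, with overlap (-0.28, 95% confidence interval -0.86 to 0.30). Without control replicate 1 its log2 fold change was -0.56, with an adjusted p of 0.00905.

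The 19 chains under the filter had at most 51 reads in any library. They were the fibrillar chain Col24a1, the basement membrane chains Col4a3 and Col4a4, the FACIT chains Col9a1, Col9a2, Col9a3, Col14a1, Col19a1 and Col22a1, and Col6a4, Col6a5, Col6a6, Col7a1, Col13a1, Col17a1, Col23a1, Col25a1, Col26a1 and Col28a1 among the others. Col13a1 and Col25a1, which span the plasma membrane, had 0 reads in all libraries. Col6a5, an alternative to Col6a3 in type VI filaments, had 36, 34 and 48 reads in the controls and 6, 7 and 3 with metformin. With no filter on low values it was the only one of the 19 to be called (log2 fold change -0.24, limma-trend, adjusted p = 0.0121), and it is 96.9% identical to Col6a6 over 572 bases. Col14a1, a FACIT of soft connective tissue, had 9, 5 and 4 reads in the controls and 0, 0 and 1 with metformin. Col7a1, the anchoring fibril chain of skin, had 4, 27 and 39 reads in the controls and 43, 39 and 51 with metformin. Stretches that are near-identical to another gene were also found in Col4a3, Col9a3 and Col26a1.

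The share of the RNA that came from collagen chains was taken as a description, with no test. Their summed FPKM was 4627 ± 564 (SD, n = 3) in the controls and 6983 ± 337 (n = 3) with metformin, a ratio of 1.51. By class, the summed FPKM with metformin was 1.59 times that of the controls for fibrillar chains, 1.34 times for basement membrane chains, 2.98 times for FACIT chains and 1.23 times for the others. Of the FACIT sum, with means of 71.0 FPKM in the controls and 212 FPKM with metformin, Col12a1 alone held 42.9 and 171 FPKM. Most of the total over all classes came from few chains, since Col1a1 and Col1a2 made up 49.7% of the summed collagen FPKM in the controls and 56.3% with metformin. The chains held 3.41, 4.08 and 4.33% of all recovered reads in the controls and 5.86, 6.07 and 5.64% with metformin. Because the mitochondrial share differed between the groups, the share was also taken of the other reads, where it was 3.79, 4.45 and 4.62% in the controls and 6.02, 6.25 and 5.82% with metformin. The groups did not overlap on either base, whereas the basement membrane share of the other reads did overlap.

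**Figure D3:**
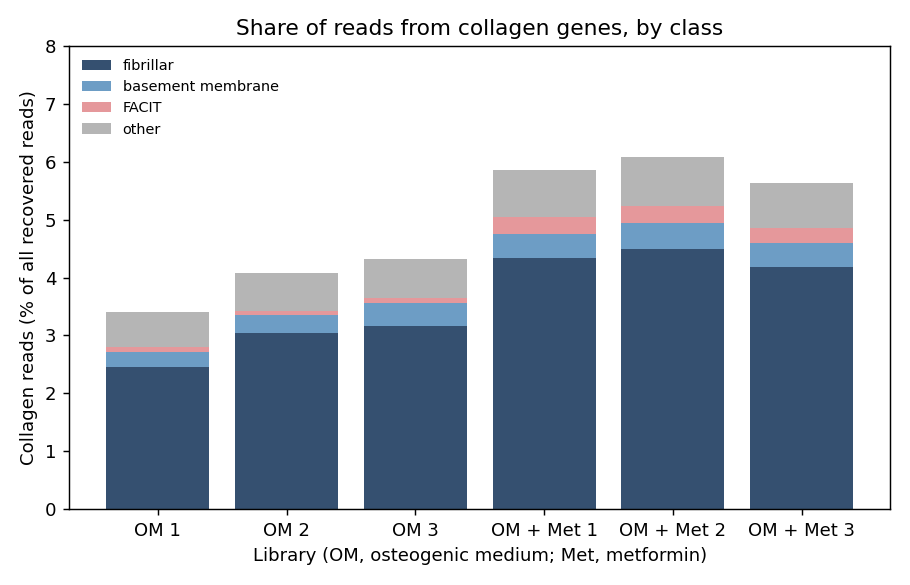
Share of recovered reads (percent) that fell on collagen chains in each library, stacked by class, with bars from 0. The controls reach 3.41 to 4.33% and the metformin libraries 5.64 to 6.07%.

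Ratios between chains within a library show which chains moved apart, and they do not depend on library scaling. Per listed gene length, the level of Col1a1 was 0.976, 1.503 and 1.657 times that of Col1a2 in the controls and 1.76, 1.69 and 1.72 times with metformin. The groups did not overlap, though control replicate 1 set most of the difference, and with the length of the longest coding transcript the mean ratio was 0.657 in the controls and 0.821 with metformin. Col3a1 was at 0.367, 0.251 and 0.220 of Col1a1 in the controls and at 0.110, 0.116 and 0.114 with metformin, entirely below. Col6a3 was at 0.239, 0.152 and 0.201 of Col6a1 in the controls and at 0.317, 0.327 and 0.305 with metformin, entirely above. Col4a5 was at 2.66, 2.34 and 2.38 times Col4a6 in the controls and at 3.53, 3.48 and 3.42 times with metformin, so that the neighbours on the X chromosome both rose but by different amounts. The ratios of Col4a1 to Col4a2, Col5a1 to Col5a2, Col6a1 to Col6a2, Col8a1 to Col8a2 and Col5a1 to Col1a1 overlapped between the groups.

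**Figure D4:**
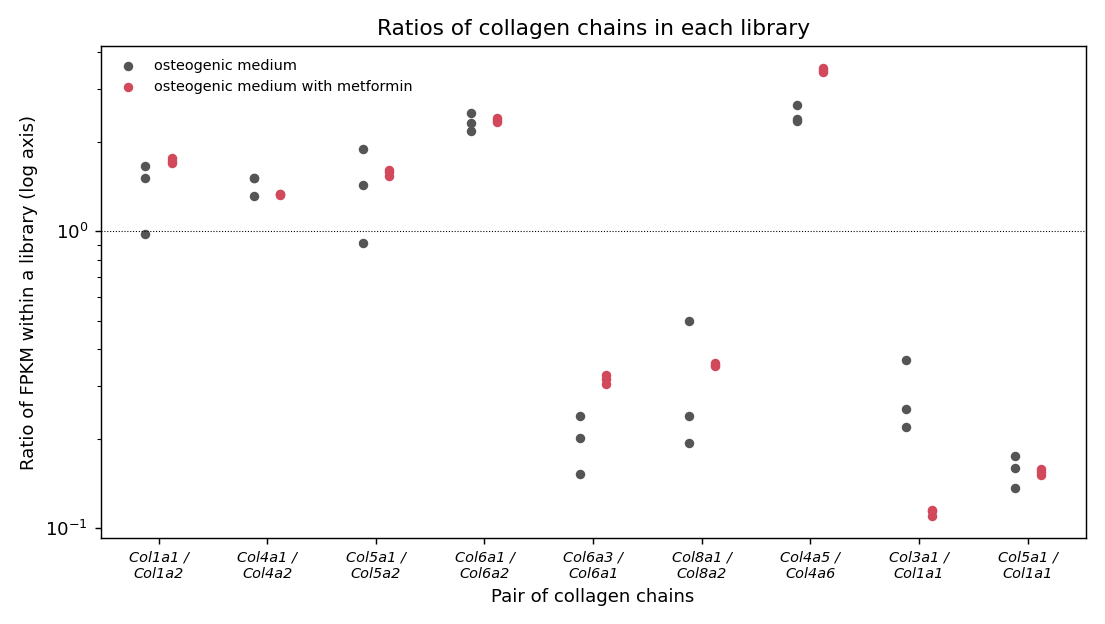
Ratio of the FPKM of partner chains within each library on a log axis, with control and metformin libraries in separate colours. The ratio of Col3a1 to Col1a1 lies at 0.220 to 0.367 in the controls and at 0.110 to 0.116 with metformin.

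Control replicate 1 differed from the other controls along GC content, and the collagen genes are GC-rich. The GC content of the longest transcript of the 25 chains ran from 46.8 to 62.9%, with a median of 56.4%, against 49.5% over all tested genes. The difference of control replicate 1 from the mean of the other controls ran from -0.97 for Col11a2 to 0.53 for Col12a1 on log2(FPKM + 1). Across the 25 chains it had a Pearson correlation of -0.86 and a Spearman correlation of -0.87 with GC content, a description across genes that share their libraries. Over all tested genes the Spearman correlation was -0.668, so that the trend was one of the library and not of the collagen chains alone. This replicate was the lowest control for 18 chains and the highest for 6. Without it, 13 chains were called higher and 7 lower in place of 10 and 2. With a GC correction within each library, 13 were called higher and 6 lower. That correction fits each library's difference from the mean of all 6 libraries. It therefore also removes any GC-linked part of the difference between metformin and control. Over all tested genes, 1670 were called higher and 1177 lower with all libraries, 2969 and 2590 without control replicate 1, and 2062 and 2434 with the GC correction, so that the calls of all genes rose in number as well. The GC correction also moved the share of all calls that were higher from 58.7% to 45.9%, and scaling without mitochondrial reads moved it to 41.8%. The part of GC content in the calls of single chains was not tested beyond these fits.

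**Figure D5:**
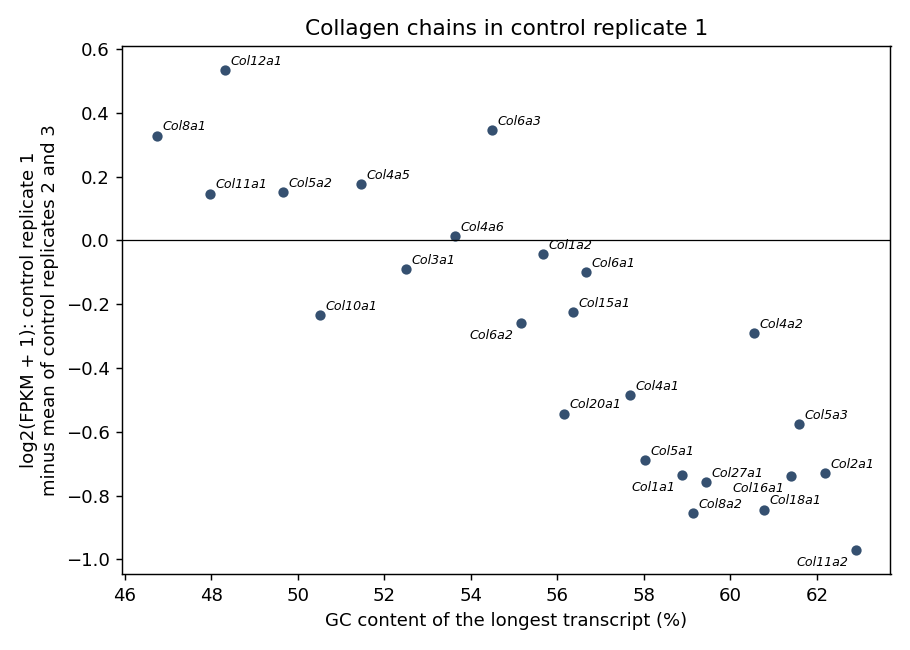
Difference of control replicate 1 from the mean of control replicates 2 and 3 (log2(FPKM + 1)) against the GC content of the longest transcript (percent), with 1 labelled point for each of the 25 tested collagen chains. The Pearson correlation over the 25 points is -0.86, with the chains of higher GC content mostly below 0.

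The machinery that makes collagen was measured beside the chains. The list held 30 genes of collagen synthesis and crosslinking (hydroxylases, chaperones, proteinases that trim procollagen, and lysyl oxidases). Of the 26 tested, 9 were called higher and 0 were called lower, with a median log2 fold change of 0.30. Among all tested genes, 13.2% were called higher and 9.28% lower. P4ha1, a catalytic subunit of prolyl hydroxylase, measured 34.2, 29.6 and 28.2 FPKM in the controls and 53.3, 53.9 and 49.6 FPKM with metformin (log2 fold change 0.76 ± 0.10, limma-trend, adjusted p = 0.00280). Serpinh1, the collagen chaperone HSP47, measured 370, 532 and 483 FPKM in the controls and 699, 709 and 668 FPKM with metformin (0.60 ± 0.15, adjusted p = 0.0299 by limma-trend). P4ha2, another prolyl hydroxylase subunit, had a log2 fold change of 0.51 ± 0.08 (limma-trend, adjusted p = 0.00565). For these 3 genes no control reached the level of a metformin sample. Lox, a lysyl oxidase, measured 648, 537 and 451 FPKM in the controls and 446, 449 and 427 FPKM with metformin, without overlap. It was not called (log2 fold change -0.29 ± 0.14, limma-trend, adjusted p = 0.201). The count of 9 called higher was 15 without control replicate 1, 3 with a replicate block and 11 with the GC correction. Over all tested genes, the 1670 called higher were 2969, 1161 and 2062 in these fits. The GC correction called 1 gene of the list lower, and 2434 over all tested genes in place of 1177.

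Of 8 collagen receptors, 7 were tested, 4 were called higher and 1 was called lower, against 13.2% and 9.28% of all tested genes. Itga1, Itga11 and Itgb1, whose integrin products bind collagen, had log2 fold changes of 1.14 ± 0.11, 0.98 ± 0.08 and 0.72 ± 0.16 (limma-trend, adjusted p = 0.000646, 0.000426 and 0.0203). Itga10, another collagen-binding integrin subunit, measured 65.4, 65.2 and 62.1 FPKM in the controls and 39.0, 38.3 and 38.1 FPKM with metformin (-0.72 ± 0.08, limma-trend, adjusted p = 0.00103). Of 9 osteoblast markers, 8 were tested, with 0 called higher and 2 lower, against the same 13.2% and 9.28% of all tested genes. The 2 were the bone matrix proteins Spp1 (log2 fold change -1.50) and Ibsp (-1.60). All 8 had reads in every library. The other 6 tested markers were not called, among them Runx2, Sp7, Alpl, Bglap and Sparc. Sp7 measured 36.8, 47.1 and 41.0 FPKM in the controls and 54.0, 53.8 and 52.1 FPKM with metformin, without overlap. Its log2 fold change was 0.36 (limma-trend, adjusted p = 0.0586), whereas Runx2 was lower without overlap (-0.18). Phex, under the filter, was at 0.714, 0.409 and 0.356 FPKM in the controls and 0.160, 0.146 and 0.196 FPKM with metformin. Without control replicate 1, 1 marker was called higher and 4 lower. In that fit 2969 of all tested genes were called higher and 2590 lower, in place of 1670 and 1177. Summed over the list, the markers lay at 8875 to 10914 FPKM in the controls and 4393 to 4532 FPKM with metformin, most of it Spp1, whose mean was 7703 and 2704 FPKM.

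Markers of other cell types were also read beside the chains. The 6 endothelial markers summed to at most 0.156 FPKM in any library. Of 7 chondrocyte markers, 2 were tested and 0 were called. Without control replicate 1, 1 of them was called higher and 1 lower, as were 2969 and 2590 of all tested genes. Sox9 lay at 19.9 to 28.1 FPKM over the 6 libraries and Hapln1 at 2.59 to 6.44 FPKM. Of the 5 under the filter, Matn3 was at 0.236, 0.0633 and 0.0675 FPKM in the controls and 0.585, 0.548 and 0.443 FPKM with metformin, without overlap, Matn1, Cnmd and Acan were at or below 0.201 FPKM, and Snorc was listed at 0. The list summed to 26.3 to 32.0 FPKM in the controls and 26.2 to 29.0 FPKM with metformin. Of 5 macrophage markers, 2 were tested and 1, Cd68, was called lower (-0.49), against 9.28% of all tested genes. Lyz2, the other tested marker, measured 24.0, 16.8 and 13.1 FPKM in the controls and 26.2, 29.6 and 25.9 FPKM with metformin. Its groups did not overlap, but it was not called (log2 fold change 0.61 ± 0.20, limma-trend, adjusted p = 0.0771). In the fit without control replicate 1, 1 macrophage marker was called higher and 1 lower, beside the same 2969 and 2590 of all tested genes. The list summed to 15.3 to 26.0 FPKM in the controls and 27.1 to 30.9 FPKM with metformin, most of it Lyz2. The other macrophage markers were under the filter. Csf1r was at 0.00976 to 0.0312 FPKM in the controls and 0.0420 to 0.0752 FPKM with metformin, without overlap, and Ptprc and Adgre1 were at or below 0.0156 FPKM. Of 5 adipocyte markers, 1 was tested and 0 were called, and the list summed to 1.76 to 3.18 FPKM in the controls and 2.10 to 2.45 FPKM with metformin. Their part in the collagen differences was not tested.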

How the data were processed

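RNA of 6 MC3T3-E1 samples (3 in osteogenic medium, 3 with metformin) was sequenced from TruSeq libraries. The authors deposited 1 table of FPKM and a gene length, in bases, which equals the merged exons of GENCODE M21 (GRCm38) for 42 of the 44 chains. All 44 chains have its coordinates. The submitters' processing notes name Bowtie 0.12.2, mm8 and mm9, the counting tool is not given in the sources used here, and the study tested with DESeq2. No further per-sample columns were present (0).

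FPKM times length gave whole reads for 100% of values (tolerance 0.01 reads). The authors' library sizes equal median-of-ratios scaling. Chains were tested in the fit of all genes by limma-trend (limma 3.58.1, R 4.3.3) on log2(FPKM + 1). The step was first tested on simulated data with equal spread for all genes and no GC trend in any library. That simulation does not cover the GC trend of control replicate 1. The members and gene lists were chosen with earlier results of these data known. Chains passing the filter are described with their values, those under it by reads, and of each collagen list up to 3 called genes each way with the largest change are named. Sums and ratios got no test. Same-numbered samples had correlations of -0.053, 0.000265 and -0.055 and none correlated best with its own number. This check found no pairing by number, but with 3 samples per group it cannot exclude one. Near-identity was taken at 95% over 200 bases (BLAST 2.17.0). Figures used matplotlib 3.10.9. Alternatives, including 2 kinds chosen after seeing the data (scaling without mitochondrial reads, coding length in ratios), are listed in the closing section.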

Additional observations from a re-analysis of the deposited data

How the results depend on the processing

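Each tested chain was refitted under 15 alternatives: a pseudocount of 0.1, scaling by total reads or by reads without mitochondrial genes (chosen after seeing the data), no filter, a minimum of 10 reads per library, a GC correction, the replicate block, these last together, voom on recovered reads, and 6 fits that each leave out a library. No called chain changed sign. Of the 13 uncalled chains, 9 were called in some alternative and 4 (Col27a1, Col4a1, Col6a1 and Col6a2) in none. With the replicate block, 1 collagen chain was called lower in place of 2 (Col3a1 was lost), 0 fibrillar chains were lower in place of 1, and 698 genes were lower in place of 1177. The same-numbered samples share only a number.

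The count of all genes called lower was 2434 with the GC correction, 1890 with it and the block, and 1859 without mitochondrial reads in the scaling. Leaving out 1 library gave 938 to 2969 higher (1670 with all) and 495 to 2590 lower. Collagen chains called lower were 1 with at least 10 reads, 6 with the GC correction and 5 with it and the block. Leaving out 1 library gave 5 to 13 higher and 1 to 7 lower, with the fewest higher without metformin replicate 2 (5) and replicate 1 (6), and the most lower without control replicate 1 (7). Fibrillar chains: 1 was higher with no filter, 0 were lower with no filter or at least 10 reads, 2 were lower with the GC correction, alone or with the block, and leaving out 1 library gave 1 to 5 higher and 0 to 3 lower. FACIT chains: the GC correction, alone or with the block, gave 2 higher and 1 lower, and leaving out 1 library gave 1 to 2 higher and 0 to 1 lower. Other chains: 2 were lower with no filter, voom, scaling without mitochondrial reads, or the GC correction with the block, 3 with the GC correction, and leaving out 1 library gave 1 to 3 higher and 1 to 3 lower. The cause was not tested.

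Signs turned for uncalled chains. Leaving out 1 library gave -0.317 to 0.0781 for Col2a1 (positive without control replicates 2, at 0.0179, and 3), -0.307 to 0.2001 for Col27a1 (positive without control replicate 3) and -0.0246 to 0.110 for Col6a2 (negative without control replicate 1). Scaling without mitochondrial reads gave -0.0209 for Col6a1 and -0.0485 for Col6a2. Leaving out 1 library moved the log2 change of the ratio to -0.0774 to 0.428 for Col5a1 to Col5a2, -0.0230 to 0.0800 for Col6a1 to Col6a2, -0.0529 to 0.718 for Col8a1 to Col8a2 and -0.116 to 0.0626 for Col5a1 to Col1a1, with the turn in the first without control replicate 1 and in the others without control replicate 3. Scaling without mitochondrial reads moved the median of all genes by -0.0887. The 19 chains under the filter had at most 51 reads in any library, and differences in them rest on these few reads.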
